A study of Mus musculus with 5 samples.

Results

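The SLAM family of lymphocyte surface receptors and the SH2 adaptors grouped with it were followed across 3 sorted populations of mouse spleen T cells. The set was defined by gene name. It holds 7 receptors (Slamf1, Slamf6, Slamf7, Cd244, Ly9, Cd48 and Cd84) and 2 adaptors (Sh2d1a and Sh2d2a). All 9 were present among the 35275 genes of the deposited table, and all 9 passed the filter on low values. RNA was sequenced in 5 libraries: 1 of CD8 Treg (CD8+ regulatory T cells), 2 of CD4 Treg (CD4+ regulatory T cells) and 2 of a population labelled CD49lo. All came from spleens of wild-type C57BL/6 mice aged 3 months, with no treatment named, and all passed through a CD8 enrichment before flow sorting. The series sets CD4+ and CD8+ Tregs beside CD8+ cells that resemble effectors, and CD49lo is the effector population only by elimination, since no label spells the name out. The labels give neither the sorting gates nor the number of animals, so p-values measure the spread between these libraries, which may be technical.

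SLAM receptors sit on most blood cells and bind either themselves on a neighbouring cell or, for Cd244 (also called 2B4), the partner Cd48. On most members a cytoplasmic tail carries tyrosine motifs that recruit SAP, the short adaptor encoded by Sh2d1a, which brings in the kinase Fyn. Without SAP the same tails can recruit inhibitory phosphatases. In T cells the family is known for tuning T cell to B cell contacts, natural killer T cell development and killing by CD8 T cells. Loss of SAP in humans causes X-linked lymphoproliferative disease.

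The populations differed in 4 receptors and, by a small amount, in the adaptor Sh2d2a. No difference in the adaptor SAP or in the receptors Ly9, Cd84 and Slamf6 passed the test. Slamf7, Cd48 and Cd244 were lower in CD4 Treg than in CD49lo, and Slamf1 and Sh2d2a were higher, where 22.3% of all genes tested passed. CD8 Treg had less Slamf1 and more Slamf7 and Cd244 than CD4 Treg, where 16.9% of all genes passed. Against CD49lo, CD8 Treg had less Cd48 and Slamf7, where 5.3% of all genes passed. These calls of Cd48 and Slamf7 in CD8 Treg over CD49lo were lost in several alternative fits. Levels are given in RPKM (reads per length of gene and per depth of library), which can be compared between genes because they are per length. Fold changes come from a limma model over all genes on log2(RPKM + 0.5), in which a gene is called at an adjusted p under 0.05. Every CD8 Treg value rests on n = 1, and the model assumes that this library varies like the replicated groups.

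The libraries held between 5441444 and 8354971 reads in genes, and 1 read in a gene of 1 kilobase was worth 0.120 to 0.184 RPKM. T cell genes (Cd3d, Cd3e, Cd3g, Thy1 and Trac) were high in every library, with a summed level of 2036 RPKM in CD8 Treg, 2386 and 2402 in CD4 Treg, and 2098 and 2280 in CD49lo. Foxp3, the transcription factor of CD4+ regulatory T cells, matched the labels of the replicated groups at 146 RPKM in each CD4 Treg library and 1.66 and 0.795 in CD49lo. In CD8 Treg it stood at 0.387 RPKM. Xist, the noncoding RNA that marks female cells, had 0.0834 RPKM in CD8 Treg, 35.5 and 27.2 RPKM in CD4 Treg, and 0.0269 and 0 RPKM in CD49lo. A gene of the Y chromosome, Ddx3y, ran the other way, with 18.3 RPKM in CD8 Treg, 0.0701 and 0 in CD4 Treg, and 18.3 and 27.4 in CD49lo. Sex and CD4 Treg identity therefore cannot be told apart in any contrast with CD4 Treg below.

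Summed levels of genes listed as markers of other cell types that also carry SLAM receptors moved with the groups. Which cells these transcripts came from, T cells included, was not tested. The summed level of 9 B cell markers was 84.2 RPKM in CD8 Treg, 10.3 and 12.6 in CD4 Treg, and 144 and 198.5 in CD49lo. All 9 were lower in CD4 Treg than in CD49lo, with Ebf1 at 0 in CD4 Treg replicate 1 and Blk and Fcer2a at 0 in CD4 Treg replicate 2. The 8 monocyte, macrophage and neutrophil markers summed to 255 RPKM in CD8 Treg, 14.5 and 2.20 in CD4 Treg, and 511 and 457 in CD49lo. All 8 were likewise lower in CD4 Treg than in CD49lo. The 7 dendritic cell markers summed to 8.24 RPKM in CD8 Treg, 0.865 and 0.778 in CD4 Treg, and 46.5 and 47.0 in CD49lo, with Clec9a at 0 in CD8 Treg and Xcr1 and Batf3 at 0 in both CD4 Treg libraries. For dendritic cell markers the test called 5 of 7 lower in CD4 Treg than in CD49lo, where 12.8% of all genes tested were called lower. Where CD8 Treg was set against CD49lo, 3.59% of all genes were called lower. So were 3 of 7 dendritic cell, 0 of 9 B cell and 1 of 8 monocyte, macrophage and neutrophil markers. Of 6 NK cell markers 1 was called lower, as was 1 of 4 tested plasma cell markers. In CD8 Treg over CD4 Treg, 8.51% of all genes were called higher. So were 9 of 9 B cell, 8 of 8 monocyte, macrophage and neutrophil and 6 of 6 NK cell markers. Of 7 dendritic cell markers 2 were called higher, as was 1 of 4 tested plasma cell markers. The 6 NK cell markers summed to 213 RPKM in CD8 Treg, 3.49 and 3.03 in CD4 Treg, and 394 and 1765 in CD49lo, and Ncr1 was at 0 in both CD4 Treg libraries. Gzma made up most of the CD49lo sums, at 56.4 RPKM in CD8 Treg against 304 and 1580 in CD49lo. Of the other NK cell markers, some were higher in CD8 Treg than in both CD49lo libraries without passing the test. These were Ncr1 (18.8 against 5.28 and 7.03 RPKM), Klri2 (2.86 against 0.398 and 1.09) and Eomes (82.4 against 57.0 and 55.2). Klrb1c (6.53 against 5.29 and 12.4) and Klre1 (46.0 against 22.3 and 109) lay inside the CD49lo range. The 5 plasma cell markers summed to 92.6 RPKM in CD8 Treg, 60.4 and 57.4 in CD4 Treg, and 179 and 154 in CD49lo. Igj made up most of the sums in CD8 Treg and CD49lo, at 65.5 RPKM in CD8 Treg, 7.18 and 1.32 in CD4 Treg, and 126 and 105 in CD49lo. Xbp1 and Irf4 were instead lower in CD8 Treg than in CD4 Treg (log2 fold change -0.83 and -1.16; limma adjusted p = 0.0107 and 0.00273), and neither was called in CD4 Treg over CD49lo. Markers near 0 in CD4 Treg passed the filter on low values only through the other groups. The part of these markers in the results on SLAM genes was not tested. In sorted bulk samples fewer cells of a type and less RNA per cell cannot be told apart.

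**Figure D1:**
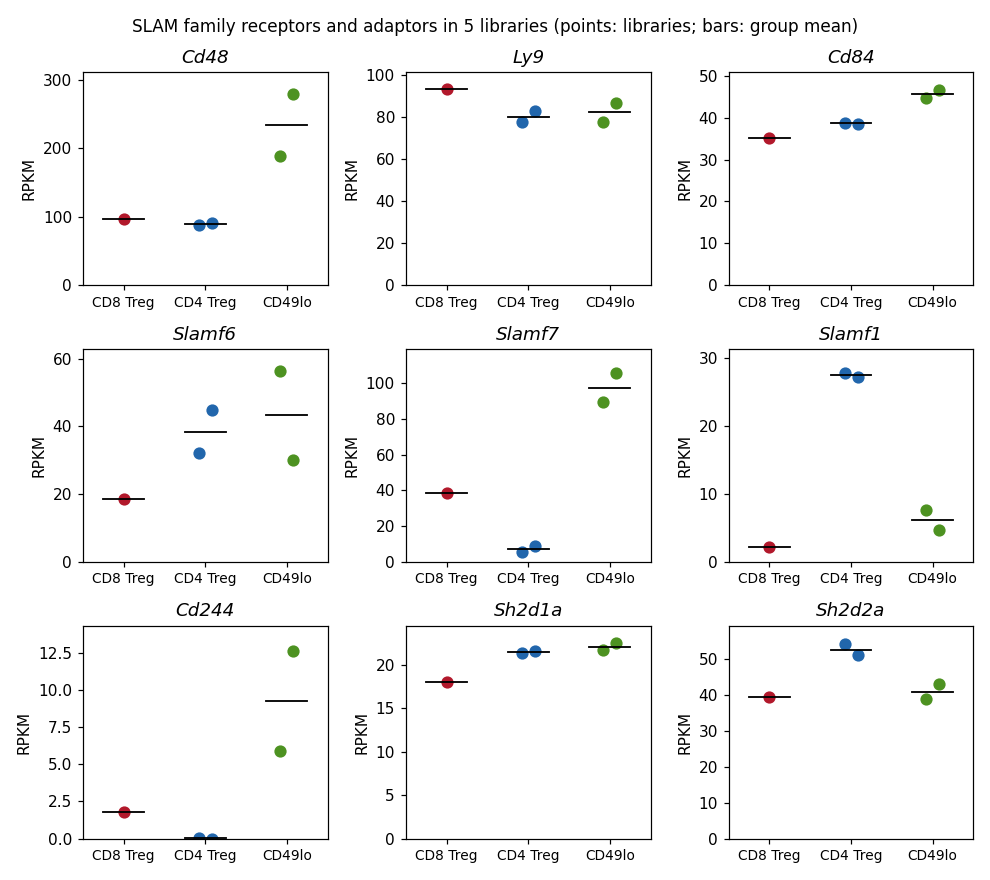
RPKM of the 9 genes (vertical axes, each from 0) in CD8 Treg, CD4 Treg and CD49lo; points are libraries and black bars are group means. Slamf1 stands out in CD4 Treg at 27.7 and 27.1 RPKM, Slamf7 and Cd48 in CD49lo, and the adaptor Sh2d1a lies between 18.0 and 22.5 RPKM throughout.

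Slamf7 (CRACC), a receptor known from NK cells, cytotoxic T cells and plasma cells, had 38.5 RPKM in CD8 Treg, 5.36 and 8.66 RPKM in CD4 Treg, and 89.5 and 105 RPKM in CD49lo. These values rest on 253 reads in CD8 Treg, 36 and 51 in CD4 Treg, and 809 and 749 in CD49lo. The 3 groups did not overlap, and CD8 Treg stood between the others. On the log2 scale Slamf7 differed by 2.52 ± 0.29 in CD8 Treg over CD4 Treg (SE; limma adjusted p = 0.000423). It was -1.19 ± 0.29 in CD8 Treg over CD49lo (limma adjusted p = 0.0484) and -3.71 ± 0.24 in CD4 Treg over CD49lo (limma adjusted p = 8.75e-06). The call against CD49lo in CD8 Treg was lost when any 1 replicated library was left out, with adjusted p from 0.0615 to 0.38, and also with a pseudocount of 0.1 or 1 (0.0586 and 0.0542), with median-of-ratios factors (0.051) and with a prior on log2 RPKM (0.0913). Without CD49lo replicate 1 or 2 the call was also lost for CD8 Treg over CD4 Treg (adjusted p = 0.105 and 0.112) and for CD4 Treg over CD49lo (adjusted p = 0.0736 and 0.0786).

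Cd244, the receptor for Cd48 on NK cells and on killer T cells, was close to absent from CD4 Treg. It had 1.80 RPKM (41 reads) in CD8 Treg, 0.0429 and 0 RPKM (1 and 0 reads) in CD4 Treg, and 5.92 and 12.6 RPKM (186 and 312 reads) in CD49lo. The groups were fully separated, and the CD49lo libraries lay far from each other. In RPM (reads relative to the total of the library), CD49lo over CD4 Treg gave a ratio of 389 (95% exact interval 69.4 to 15400), and CD4 Treg over CD8 Treg a ratio of 0.0127 (0.000314 to 0.075), both covering counting error only. Cd244 was called lower in CD4 Treg than in CD49lo (log2 fold change -4.10 ± 0.46, limma adjusted p = 0.000218) and higher in CD8 Treg than in CD4 Treg (2.22 ± 0.56, limma adjusted p = 0.0253). The added 0.5 RPKM sets part of these fold changes. Cd244 passed the filter on low values only through CD8 Treg and CD49lo libraries, so these calls could hardly run the other way. In CD8 Treg over CD49lo the value was -1.89 ± 0.56, which did not pass (limma adjusted p = 0.0949), although it did when only the libraries of these 2 groups were fitted (adjusted p = 0.000875). Leaving out any 1 replicated library ended the call of CD8 Treg over CD4 Treg (adjusted p from 0.0725 to 0.125, beside 0.112 by limma-voom and 0.0664 with a pseudocount of 1) and did not end that of CD4 Treg over CD49lo (adjusted p from 0.00853 to 0.04), except without a CD49lo library when 0.5 RPM in place of 0.5 reads was added in limma's variance prior.

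Cd48, a lipid-anchored member without a cytoplasmic tail that serves as ligand for Cd244 and Cd2, had the highest RPKM of the 9 members in every library, although in CD8 Treg its lead over Ly9 was small. It had 96.5 RPKM in CD8 Treg, 88.5 and 90.7 RPKM in CD4 Treg, and 189 and 280 RPKM in CD49lo. CD8 Treg lay close to CD4 Treg, and both CD49lo libraries lay above. Its log2 fold change was -1.11 ± 0.20 in CD8 Treg over CD49lo (limma adjusted p = 0.014) and -1.33 ± 0.16 in CD4 Treg over CD49lo (limma adjusted p = 0.000395). Between CD8 Treg and CD4 Treg it was 0.21 ± 0.20, with a 95% interval of -0.24 to 0.67 (limma adjusted p = 0.531). The call in CD8 Treg over CD49lo was lost without any 1 replicated library (adjusted p from 0.0882 to 0.172) and with a prior on log2 RPKM (0.062), while the call in CD4 Treg over CD49lo held in all 4 such fits (adjusted p from 0.0201 to 0.0484), although not without a CD49lo library when 0.5 RPM was added in the prior.

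Slamf1 (CD150), a self-binding receptor known as a costimulator of T cells, set CD4 Treg apart in the opposite direction. It had 2.14 RPKM (35 reads) in CD8 Treg, 27.7 and 27.1 RPKM (463 and 397 reads) in CD4 Treg, and 7.56 and 4.70 RPKM (170 and 83 reads) in CD49lo. The groups did not overlap, and CD8 Treg had the lowest value. In log2 fold change Slamf1 was at -3.31 ± 0.30 in CD8 Treg over CD4 Treg (limma adjusted p = 0.00012) and 2.13 ± 0.25 in CD4 Treg over CD49lo (limma adjusted p = 0.000279). In CD8 Treg over CD49lo it was -1.18 ± 0.30 and did not pass (limma adjusted p = 0.0608), although it did without a scaling factor (-1.29, adjusted p = 0.037). Without CD49lo replicate 1 the call of CD8 Treg over CD4 Treg was lost (-3.32, adjusted p = 0.0514), and without CD49lo replicate 2 that of CD4 Treg over CD49lo (1.81, adjusted p = 0.0563). Within a library, the ratio of Slamf1 to Slamf7 RPKM was 0.0556 in CD8 Treg, 5.17 and 3.13 in CD4 Treg, and 0.0844 and 0.0445 in CD49lo.

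Slamf1, Slamf7 and Cd244 had the largest differences among the 9 members in the contrast of the CD8 Treg with the CD4 Treg, so the stretches just before their starts are shown. Each line gives 250 bases upstream of the RefSeq start (GRCm38.p6, the assembly of mm10), 5′ to 3′ on the gene's strand, with matches to the AP-1 motif TGANTCA in capitals. The stretches lie at chr1:171649000-171649249 on the minus strand for Slamf7, at chr1:171558943-171559192 on the plus strand for Cd244 (Cd244a in RefSeq) and at chr1:171766882-171767131 on the plus strand for Slamf1.
Slamf7: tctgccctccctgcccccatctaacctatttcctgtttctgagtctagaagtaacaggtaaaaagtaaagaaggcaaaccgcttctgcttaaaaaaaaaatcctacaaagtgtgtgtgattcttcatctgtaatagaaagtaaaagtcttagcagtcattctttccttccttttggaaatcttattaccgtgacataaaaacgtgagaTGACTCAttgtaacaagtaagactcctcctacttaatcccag
Cd244a: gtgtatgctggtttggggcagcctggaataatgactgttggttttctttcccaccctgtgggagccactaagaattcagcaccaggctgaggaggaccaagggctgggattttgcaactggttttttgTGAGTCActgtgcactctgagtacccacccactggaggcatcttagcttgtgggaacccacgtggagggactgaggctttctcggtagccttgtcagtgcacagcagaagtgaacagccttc
Slamf1: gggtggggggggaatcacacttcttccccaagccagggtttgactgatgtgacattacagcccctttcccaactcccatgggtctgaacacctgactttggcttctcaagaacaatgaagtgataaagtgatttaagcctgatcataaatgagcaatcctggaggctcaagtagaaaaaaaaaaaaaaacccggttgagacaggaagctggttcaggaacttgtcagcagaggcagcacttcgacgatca

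The AP-1 motif starts 42 bases before the start of Slamf7 and 122 bases before that of Cd244a, and these letters were not found in the Slamf1 stretch. Of the 6 members with a sequence in the RefSeq table (Cd244a, Slamf7, Cd48, Slamf1, Cd84 and Slamf6), 3 held the motif, the remaining match being in Cd84, 229 bases before its start, whose RNA was not called in any contrast. Across 32536 mouse stretches of the same length, 6.73% held it on either strand. Motifs of T-box (TCACACCT), RUNX (TGTGGTT), ETS (CCGGAAG), forkhead (TGTTTAC) and TCF/LEF (CTTTGAT) factors, searched on both strands, were found in 0 of the 6 and in 1.12%, 4.41%, 6.95%, 3.17% and 3.21% of all stretches. For Slamf6 the RefSeq stretch ends at 171917461 and the table's gene starts at 171917537, and the bases after the RefSeq start were not found at the start of its annotated transcripts. The motifs overlapped no other match in the members. These matches describe letters only, and the 6 motifs were chosen with earlier results of these data known.

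Ly9 (CD229), a self-binding receptor, varied little between libraries, and no contrast was called. It had 93.1 RPKM in CD8 Treg, 77.6 and 82.7 RPKM in CD4 Treg, and 77.7 and 86.6 RPKM in CD49lo. The CD4 Treg and CD49lo libraries overlapped, and the CD8 Treg library was the highest. Its log2 fold change in CD8 Treg was 0.32 ± 0.13 over CD4 Treg (limma adjusted p = 0.139) and 0.32 ± 0.13 over CD49lo (limma adjusted p = 0.236). The 95% intervals, not adjusted for the number of genes, lay above 0, at 0.024 to 0.625 and 0.016 to 0.616. In CD4 Treg over CD49lo the 95% interval ran from -0.25 to 0.24 (limma adjusted p = 0.97).

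Cd84, a self-binding receptor of B cells, platelets and follicular T cells, had 35.1 RPKM in CD8 Treg, 38.7 and 38.5 RPKM in CD4 Treg, and 44.8 and 46.6 RPKM in CD49lo. The groups did not overlap, but all 5 values lay within 35.1 to 46.6 RPKM and no contrast was called. The 95% interval of its log2 fold change was -0.34 to 0.28 in CD8 Treg over CD4 Treg, -0.55 to 0.06 in CD8 Treg over CD49lo, and -0.46 to 0.04 in CD4 Treg over CD49lo (limma adjusted p = 0.914, 0.378 and 0.219).

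Slamf6 (Ly108), known from follicular helper cells and from stem-like CD8 T cells, was the member whose replicates differed most beside Cd244. It had 18.7 RPKM in CD8 Treg, 32.0 and 45.0 RPKM in CD4 Treg, and 56.4 and 30.1 RPKM in CD49lo. CD8 Treg was the lowest library, and CD4 Treg and CD49lo overlapped. The log2 fold change in CD8 Treg was -0.90 ± 0.34 over CD4 Treg (limma adjusted p = 0.107) and -0.99 ± 0.34 over CD49lo (limma adjusted p = 0.143), so neither passed. The first value passed in 1 of 13 alternatives. The second value lay between -1.46 and -0.52 when single libraries were left out. It passed in 2 of 13 alternatives, among them the fit of only the libraries of CD8 Treg and CD49lo (adjusted p = 0.015). In CD4 Treg over CD49lo it was -0.09 ± 0.27 (limma adjusted p = 0.857), and leaving out single libraries moved it from -0.55 to 0.38.

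**Figure D2:**
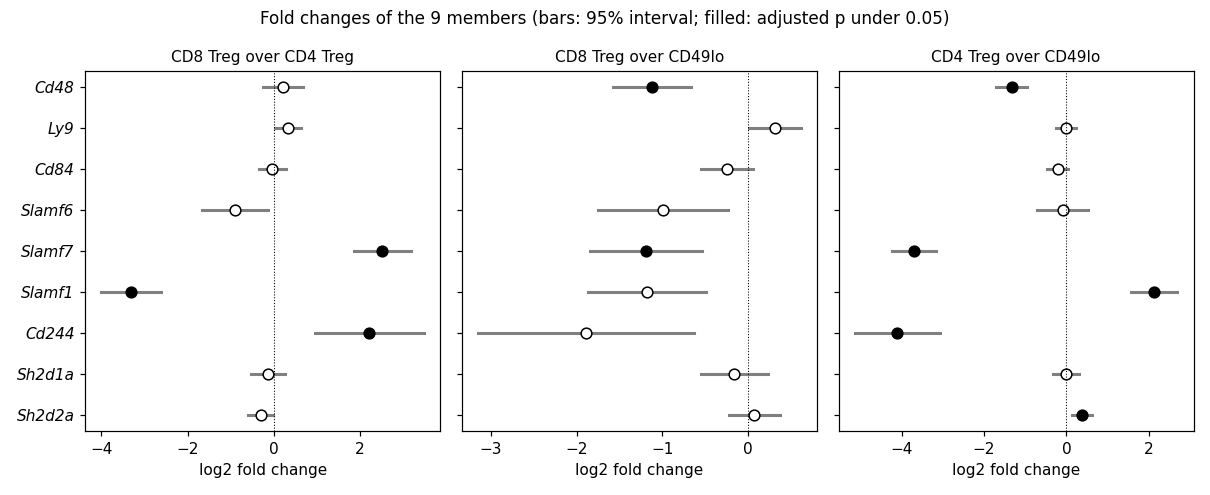
Log2 fold changes of the 9 genes (horizontal axes) in the 3 contrasts, with 95% intervals as bars; filled circles have an adjusted p under 0.05. Slamf1 lies at -3.31 in CD8 Treg over CD4 Treg and at 2.13 in CD4 Treg over CD49lo. The intervals of Cd84 and Sh2d1a span 0 in all 3 contrasts. Ly9 lies at 0.32 over CD4 Treg and over CD49lo in CD8 Treg, with open circles and intervals above 0.

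Counted over the 9 members, 3 were called in CD8 Treg over CD4 Treg, where the call was made for 16.9% of 13298 tested genes (8.51% higher and 8.35% lower). Slamf7 and Cd244 were higher and Slamf1 lower, and the median log2 fold change of the members was -0.03 against 0.02 over all genes. In CD8 Treg over CD49lo, 2 members were called, Cd48 and Slamf7, both lower, where 5.3% of genes were called (1.71% higher and 3.59% lower). Here the median of the members was -0.99, the value of Slamf6 and subject to the range given for it, against -0.04 over all genes. Of all calls in that contrast 32.3% were higher, a share that depended on the fit: 20.6% without a scaling factor, 50.8% by limma-voom and 85.2% with no filter. In CD4 Treg over CD49lo, 5 members were called, where 22.3% of genes were called (9.45% higher and 12.8% lower). Slamf1 and Sh2d2a were higher, Slamf7, Cd244 and Cd48 lower, and the median was -0.09 against -0.03 over all genes. Cd244 is counted here and in CD8 Treg over CD4 Treg, although it passed the filter on low values only through CD8 Treg and CD49lo libraries. Its calls in these contrasts could hardly run the other way. The libraries of CD4 Treg and CD49lo did not overlap for 7 of the 9 members, against 60.2% of all genes tested. The CD8 Treg library lay outside the range of the CD4 Treg libraries and of the CD49lo libraries for 9 of the 9 members after scaling, against 81.4% and 74.9% of all genes. With no filter on low values, 1 member was called in CD8 Treg over CD4 Treg (Slamf1), 0 of 9 in CD8 Treg over CD49lo (6 at an unadjusted p under 0.05) and 1 in CD4 Treg over CD49lo (Slamf7). Fits that leave out a CD49lo library depend on the value added to the reads before the variance prior of limma is set. With 0.5 reads, as used here, such fits called 0 to 3 members, and with 0.5 RPM they called 0 members and 0 genes in each contrast (3 to 5 members, and 2208 to 3643 genes, at an unadjusted p under 0.05). The contrasts share libraries, so their values are set side by side and are not independent of each other.

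The mixture of receptor transcripts is given here as a description, with no test of sums or shares. Summed over the 7 receptors, the level was 286 RPKM in CD8 Treg, 270 and 293 RPKM in CD4 Treg, and 471 and 566 RPKM in CD49lo, so that CD8 Treg lay inside the range of CD4 Treg and CD49lo lay above both. Cd48 made up 33.8% of that sum in CD8 Treg, 32.8% and 31.0% in CD4 Treg, and 40.2% and 49.4% in CD49lo. Slamf7 made up 13.5% in CD8 Treg, 1.99% and 2.96% in CD4 Treg, and 19.0% and 18.6% in CD49lo. Slamf1 made up 0.749% in CD8 Treg, 10.3% and 9.26% in CD4 Treg, and 1.60% and 0.83% in CD49lo. By level, Cd48 ranked first and Ly9 second in CD8 Treg and in CD4 Treg, whereas in both CD49lo libraries Slamf7 ranked second, ahead of Ly9. Cd244 was the lowest receptor in every library except CD49lo replicate 2, where Slamf1 was lower. In CD8 Treg the neighbours Cd48 and Ly9 (96.5 and 93.1 RPKM) were closer than the replicates of Cd48 in CD49lo, so their order there is not resolved.

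**Figure D3:**
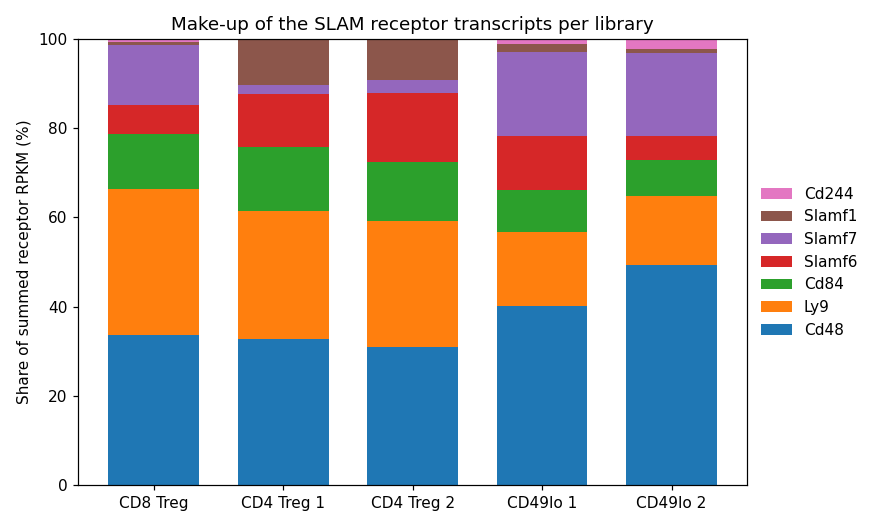
Share of each receptor in the summed RPKM of the 7 receptors (vertical axis, percent) in each of the 5 libraries. Slamf7 fills 13.5% of the CD8 Treg bar, 1.99% and 2.96% of the CD4 Treg bars and 19.0% and 18.6% of the CD49lo bars, and Slamf1 fills 10.3% and 9.26% of the CD4 Treg bars.

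Of the adaptors, Sh2d1a encodes SAP, and no contrast was called. It had 18.0 RPKM in CD8 Treg, 21.3 and 21.5 RPKM in CD4 Treg, and 21.7 and 22.5 RPKM in CD49lo. The CD8 Treg library was the lowest, and the libraries of the replicated groups lay close together. The 95% interval of its log2 fold change was -0.53 to 0.25 in CD8 Treg over CD4 Treg, -0.55 to 0.23 in CD8 Treg over CD49lo, and -0.33 to 0.30 in CD4 Treg over CD49lo (limma adjusted p = 0.64, 0.687 and 0.953). Sh2d1a lies on chromosome X (ENSMUSG00000005696, mm10, 42502453 to 42529330), so its level in CD4 Treg is read beside the Xist values above.

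Sh2d2a encodes TSAd, an SH2 adaptor of the kinase Lck that belongs with SAP by domain rather than as a partner of SLAM receptors. It had 39.4 RPKM in CD8 Treg, 54.3 and 51.1 RPKM in CD4 Treg, and 39.0 and 43.1 RPKM in CD49lo. Both CD4 Treg libraries lay above the other 3. The log2 fold change in CD4 Treg over CD49lo was 0.38 ± 0.11 (limma adjusted p = 0.0306), a small difference whose call was lost without any 1 library (adjusted p from 0.122 to 0.217) or with a prior on log2 RPKM (0.0635). In CD8 Treg it was -0.31 ± 0.13 over CD4 Treg (limma adjusted p = 0.155) and 0.08 ± 0.13 over CD49lo (limma adjusted p = 0.812).

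A list of 16 further genes of the pathway (other family members, adaptors, kinases, phosphatases and one downstream transcription factor) had 15 measured members. In CD8 Treg over CD4 Treg 1 was higher and 1 lower, where 16.9% of all genes were called. In CD4 Treg over CD49lo 2 were higher and 5 lower, where 22.3% of all genes were called. Of these 5, Slamf8, Slamf9 and Sh2d1b2 had at most 1 read in CD4 Treg and passed the filter on low values only through the other groups. Calls of these genes could hardly run the other way, so the count of 5 cannot be read against that share. In CD8 Treg over CD49lo limma called 0 of 15, where 5.3% of all genes were called, with 3 at an unadjusted p under 0.05. This count lies near the share of all genes and does not show that the groups are alike. In the same contrast limma-voom called 1 (Ptpn6). Their median log2 fold change was 0.12 in CD8 Treg over CD4 Treg, -0.01 in CD8 Treg over CD49lo and -0.13 in CD4 Treg over CD49lo, against 0.02, -0.04 and -0.03 over all genes.

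Cd2, an adhesion receptor that binds Cd48 in the mouse, was called opposite to its ligand in CD4 Treg over CD49lo only. In CD8 Treg over CD4 Treg, Cd2 was called and Cd48 was not. In CD8 Treg over CD49lo, Cd48 was called and Cd2 was not (0.24, limma adjusted p = 0.38). Cd2 had 403 RPKM in CD8 Treg, 717 and 738 RPKM in CD4 Treg, and 337 and 415 RPKM in CD49lo. CD4 Treg was the highest group, and CD8 Treg lay inside the range of CD49lo. The log2 fold change was -0.74 ± 0.14 in CD8 Treg over CD4 Treg (limma adjusted p = 0.00557) and 0.98 ± 0.11 in CD4 Treg over CD49lo (limma adjusted p = 0.000237). The first call was lost without any 1 replicated library (adjusted p from 0.0688 to 0.0843) and the second without CD49lo replicate 1 (adjusted p = 0.0566). The ratio of Cd2 to Cd48 RPKM was 4.18 in CD8 Treg, 8.11 and 8.13 in CD4 Treg, and 1.78 and 1.49 in CD49lo.

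Ptpn6, the phosphatase SHP-1 that can dock on SLAM tails, had 249 RPKM in CD8 Treg, 132 and 117 RPKM in CD4 Treg, and 188 and 206 RPKM in CD49lo. CD8 Treg was the highest library and CD4 Treg the lowest group, without overlap. The log2 fold change was 1.10 ± 0.13 in CD8 Treg over CD4 Treg (limma adjusted p = 0.000498) and -0.63 ± 0.11 in CD4 Treg over CD49lo (limma adjusted p = 0.00239), and 0.47 ± 0.13 in CD8 Treg over CD49lo did not pass (limma adjusted p = 0.0788). The first call was lost without CD49lo replicate 1 or 2 (adjusted p = 0.082 and 0.0866), and the second without CD4 Treg replicate 2 (0.0668) or CD49lo replicate 1 or 2 (0.118 and 0.143).

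The kinases that act next to SAP varied less. Fyn, the kinase that SAP recruits, had 134 RPKM in CD8 Treg, 124 and 141 RPKM in CD4 Treg, and 170 and 165 RPKM in CD49lo, and no contrast was called. Its smallest limma adjusted p was 0.0603, in CD4 Treg over CD49lo, a contrast that passed in 4 of 13 alternatives, among them limma-voom (0.0355) and no scaling factor (0.0406). Lck, the kinase of the CD4 and CD8 coreceptors, lay between 284 and 335 RPKM in all 5 libraries. Prkcq, the kinase PKC-theta, was higher in CD4 Treg than in CD49lo (0.31 ± 0.09, limma adjusted p = 0.0442) and Nck1, a linker to the cytoskeleton, lower (-0.51 ± 0.14, limma adjusted p = 0.027). Both of these calls were lost without any 1 library (adjusted p from 0.118 to 0.226 for Prkcq and from 0.082 to 0.201 for Nck1).

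Family members known mainly from myeloid and NK cells were low throughout. Slamf8 had 0.888 RPKM in CD8 Treg, 0 and 0.0901 in CD4 Treg, and 3.52 and 1.87 in CD49lo. Slamf9 had 0.125 RPKM in CD8 Treg, 0 in both CD4 Treg libraries, and 1.82 and 1.62 in CD49lo, and was at least 8.85-fold lower in CD4 Treg than in CD49lo (floor of 3 reads over the group). Sh2d1b2 (EAT-2B), an adaptor of the SAP family in NK cells, had 1.10 RPKM in CD8 Treg, 0.0634 and 0 in CD4 Treg, and 0.753 and 1.50 in CD49lo. These 3 genes were called lower in CD4 Treg than in CD49lo (limma adjusted p = 0.00502, 0.00816 and 0.0417). They passed the filter on low values only through libraries of the other groups, so such calls could hardly run the other way. The ratio of CD49lo over CD4 Treg in RPM was 66.3 for Slamf8 (95% exact interval 11.6 to 2650) and 32.0 for Sh2d1b2 (5.43 to 1290). The call of Sh2d1b2 was lost without any 1 library (adjusted p from 0.0614 to 0.197). That of Slamf8 held only without CD49lo replicate 2 (adjusted p = 0.0476, and up to 0.0617 in the other 3 fits; lost there too with 0.5 RPM in the prior). That of Slamf9 was lost without CD4 Treg replicate 1 or 2 (0.0655 and 0.0629). These 3 genes, like the B cell, myeloid, dendritic, NK and plasma cell marker sums given above, were lowest in CD4 Treg. Which cells these transcripts came from was not tested. Zbtb16, the transcription factor PLZF of natural killer T cells, whose development depends on SAP, had 0.581 RPKM in CD8 Treg, 0.0316 and 0 in CD4 Treg, and 0.868 and 0.657 in CD49lo, and was not called (limma adjusted p = 0.0721 in CD4 Treg over CD49lo), although that contrast passed in 4 of 13 alternatives (0.0211 with a pseudocount of 0.1 and 0.048 by limma-voom).

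**Figure D4:**
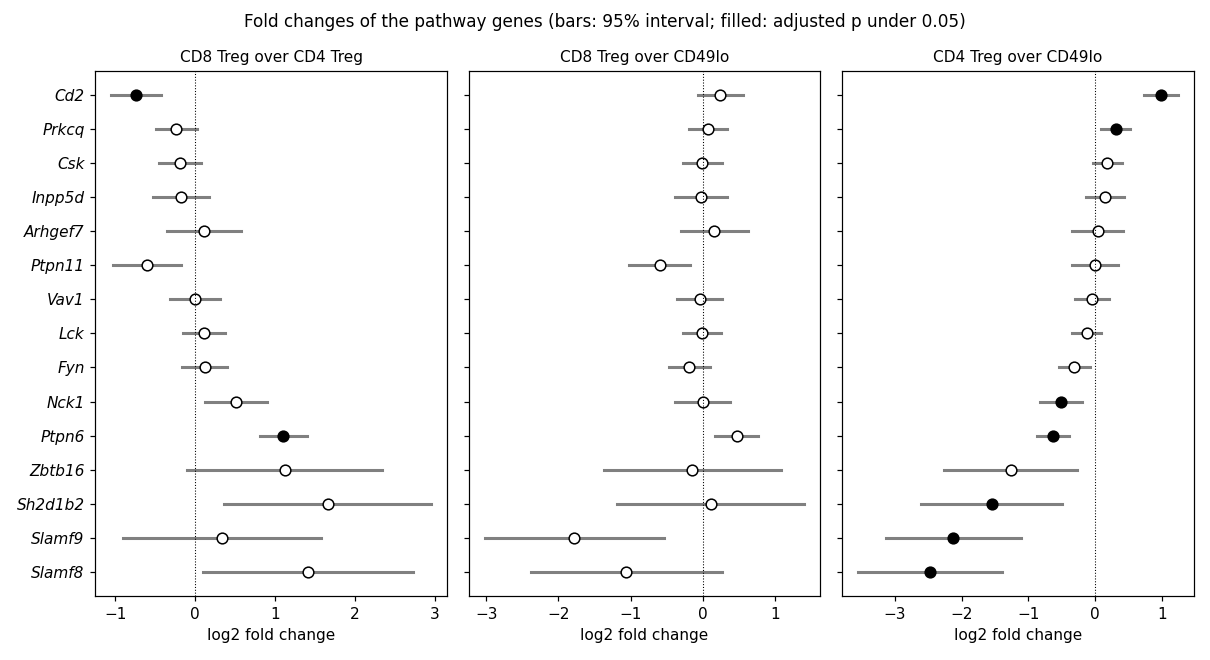
Log2 fold changes of the 15 measured pathway genes (horizontal axes) in the 3 contrasts, with 95% intervals as bars; filled circles have an adjusted p under 0.05. Cd2 (0.98) and Prkcq (0.31) are filled to the right in CD4 Treg over CD49lo, and no circle is filled in CD8 Treg over CD49lo.

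The 7 receptor genes lie in 1 stretch of chromosome 1, with members of different patterns near each other. In the mm10 coordinates of the table they span 384.7 kb, from 171559193 to 171943868, in the order Cd244, Ly9, Slamf7, Cd48, Slamf1, Cd84 and Slamf6. The stretch also holds the pseudogene Tma7-ps (46.4 RPKM in CD8 Treg, 4.96 and 9.42 in CD4 Treg, and 52.2 and 44.5 in CD49lo) and Gm10521. The ends of Ly9 (minus strand, not called in any contrast) and Cd244 (plus strand) face each other 3.31 kb apart. Cd244 had 1 read in CD4 Treg altogether. Slamf1, highest in CD4 Treg, begins 61.9 kb past Cd48, which was highest in CD49lo. Slamf1 and Cd84, which was not called in any contrast, are 38.5 kb apart.

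Some of these genes overlap others in the GENCODE M21 annotation of the same genome. The longest annotated Cd244a model extends across Ly9 on the opposite strand, although in the table's own coordinates these genes lie 3.31 kb apart. Slamf6 and Slamf7 each have an antisense transcript (Gm37065 and Gm37787, neither in the deposited table). The 3′ end of Sh2d1a overlaps Tenm1, which had at most 9 reads in any library. Strand use in counting is not given in the sources used here, so where counted genes overlap their reads cannot be told apart. In the CD4 Treg libraries Cd244 had 1 and 0 reads beside 1197 and 1119 reads of Ly9.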

How the data were processed

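Lymphocytes from spleen were enriched for CD8 cells and sorted, and libraries followed a standard Illumina protocol, per the labels' protocols. CASAVA, STAR and mm10 are named in the submitters' processing notes, and versions are not given in the sources used here. The deposited table holds RPKM per library from the authors, although it is presented as counts. Every value times gene length was a whole multiple of 1 step per library (100% of values, at a tolerance of 0.02), so reads were recovered and used for the filter, scaling, prior and depth.

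Genes were tested with at least 10 reads at the median depth in 1 library and 15 in all (13298 genes). Each library was divided by its TMM factor (trimmed mean of M values; 0.935 to 1.04), and limma 3.58.1 (R 4.3.3) fitted log2(RPKM + 0.5) over 3 groups, with 2 residual degrees of freedom and a variance prior that follows mean log2 RPM (0.5 reads added). This added value was settled after seeing the data: 0.5 RPM was tried first, then 4 other versions, and the one whose counts of called genes equalled those of an earlier analysis of this table was kept. Two-sided p-values were adjusted over every gene tested in a comparison (Benjamini-Hochberg). The fit was also run on simulated reads with the same setting of spread for every gene, which does not test the calls given here. RPKM in the text are as deposited, unscaled. Intervals and floors cover counting error only where they rest on reads. Exact intervals (Clopper-Pearson, 95%) used scipy 1.17.1. Of 76 listed symbols, matched by identifier through GENCODE M21, 75 were in the table; other listed genes are not reported here. All 9 members are named, as are pathway genes that were called and some that were not. Members, lists and motifs were chosen with earlier results of these data known. Alternatives covered pseudocount, filter, scaling, prior, model, groups fitted, single libraries left out and a replicate block; those for pathway genes were added after seeing the data.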

Additional observations from a re-analysis of the deposited data

How the results depend on the processing

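Among 13 alternatives no called member changed sign, and 305 of 351 member results stayed on their side of the threshold, 39 lost a call and 7 gained one. Of 388 results of pathway genes, 335 stayed, 39 lost a call and 14 gained one. Most of these results were not called in the main fit and so could not lose a call. All losses fell on the calls of the main fit, each refitted in 13 alternatives. In CD8 Treg over CD4 Treg, CD8 Treg over CD49lo and CD4 Treg over CD49lo these calls covered 3, 2 and 5 members and 2, 0 and 7 pathway genes. Among members, values near 0 and not called changed sign for Ly9 and Slamf6 (CD4 Treg over CD49lo) and Sh2d2a (CD8 Treg over CD49lo). With 0.1, 0.5 or 1 RPM, or 0.5 RPM with no scaling factor, added in the prior instead of 0.5 reads (chosen after seeing the data), all 108 member results stayed on their side of the threshold and 710 to 717 genes were called in CD8 Treg over CD49lo, against 705. Without CD49lo replicate 1 or 2, however, 0 genes were called in any contrast with 0.5 or 1 RPM or 0.5 RPM with no scaling factor (2201 to 3653 at an unadjusted p under 0.05), so the calls given for fits without a CD49lo library rest on that choice. With 0.5 reads and without 1 library, which leaves 1 residual degree of freedom, the members called fell to 0 to 2 of 3 in CD8 Treg over CD4 Treg, 0 to 0 of 2 in CD8 Treg over CD49lo (3 to 5 at an unadjusted p under 0.05) and 2 to 4 of 5 in CD4 Treg over CD49lo. Genes called then ranged from 155 to 967, from 0 to 199 (0 without CD49lo replicate 1, where 2209 had an unadjusted p under 0.05) and from 437 to 1457, in the same order. Without a filter, members called were 1, 0 and 1 (5, 6 and 6 unadjusted) and genes called 1277 in CD8 Treg over CD4 Treg and 704 in CD4 Treg over CD49lo. In CD8 Treg over CD49lo members called were 1 with a pseudocount of 0.1, 1 with a pseudocount of 1, 1 with median-of-ratios factors, 0 with a prior on log2 RPKM (6 unadjusted, 365 genes called) and 4 with only the libraries of these groups (1033 genes). Fitting only the libraries compared gave 1071 genes in CD8 Treg over CD4 Treg. By limma-voom 2, 2 and 5 members were called. Without a scaling factor the median of all genes in CD8 Treg over CD49lo was -0.16 against -0.04. Beyond fewer samples, the cause was not tested.

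The labels give no sign that equal replicate numbers share an animal, and the deviations of replicate 1 in CD4 Treg and CD49lo correlated at -0.02 across 13298 genes. With a replicate block, 5 members and 1371 genes were called in CD8 Treg over CD49lo, 4 members in CD8 Treg over CD4 Treg and 5 in CD4 Treg over CD49lo. Depth limits Cd244, Slamf8, Slamf9, Sh2d1b2 and Zbtb16, each with at most 1 read in CD4 Treg. These genes passed the filter only through the other groups.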
